A study of Mus musculus with 8 samples.

Results

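The 38 genes described here copy or mend DNA: they load, switch on and drive the replication helicase, prime and synthesise the new strands, supply nucleotides, rebuild chromatin behind the fork and, for Brca1 and Bard1, repair double strand breaks. The set is a list of 38 symbols, and its genes were found through probes whose RefSeq accession maps to one of them. All 38 had a named probe, out of 19751 named genes on the array, and 36 passed the filter on dim probes, out of 15861 genes tested. The other two, the origin recognition subunit Orc1 and the cyclin Ccne2, were not well above background on any of the 8 arrays. Of the 36, 33 were well above background on all 8 arrays, Tyms on 7, Cdc6 on 6 and Brca1 on 2.

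RNA from whole liver of 8 mice was measured on 1-colour arrays, 1 array per mouse, in 4 groups of 2. In each sex 2 genotypes were compared. AKP mice express an activated oncogene and mutant p53 (R172H), both restricted to the liver, and AKP::Keap1 mice carry the same pair of alleles and in addition lack Keap1, the adaptor that holds the transcription factor Nrf2 down. Each group thus holds 1 sex of 1 genotype, and no mouse without the tumour alleles was included. The labels give neither ages nor the promoter that restricts the alleles to liver, and they do not say how much of a liver was tumour. They also say nothing on litters, so p-values measure the spread between these mice as sampled.

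DNA replication starts when the origin recognition complex, Cdc6 and Cdt1 load the ring of Mcm2 to Mcm7 onto DNA before S phase. Cyclin-dependent kinases then recruit Cdc45 and the GINS complex, which turn the ring into a running helicase, and the polymerases follow. Many of these genes are targets of E2F factors and are transcribed as cells enter S phase, whereas most hepatocytes of an adult liver are out of the cell cycle.

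Levels are given as log2 of the probe's processed signal relative to the 75th percentile of its array, so that 0 is that percentile and 1 unit is a 2-fold difference. A difference is a log2 difference with its standard error from a limma fit to all 8 arrays, and the threshold for a call was an adjusted p of 0.05 (Benjamini-Hochberg over all 15861 genes). Fewer cells of a type and less RNA per cell cannot be told apart in whole tissue. Every one of the 4 slides carried a single group and the arrays of the sexes had separate scan days (2 in all), so slide and group, and scan day and sex, cannot be told apart. Between 65.7% and 70.7% of the spots of an array were well above background, no spot was saturated, and replicates correlated at 0.990 to 0.992 across genes. Keap1 itself separated the genotypes, from 1.68 to 2.14 in AKP mice and from -1.40 to -0.52 in AKP::Keap1 mice (-2.85 ± 0.11, adjusted p = 0.00018), although it is not stated whether its probe lies in the deleted part.

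Replication genes were mostly higher in AKP::Keap1 livers. Averaged over the sexes, 20 of the 36 members rose, 2 fell (Pola2 and Mcm10) and 14 were not called, with a median difference of 0.45. The background was broad: 21.9% of all tested genes were called higher and 17.2% lower, with a median of 0, against 55.6% and 5.56% of the members. A further fit took the slide as a random block, with genotype and sex as additive terms and no interaction. In that fit 13 members rose and 1 fell, against 2127 and 1164 of all genes. As each slide holds 1 group, it cannot tell slide from group. Of the 20 members that rose, 10 were at least 2-fold higher: Bard1, Uhrf1, Mcm5, Pole, Gins2, Tyms, Cdc6, Mcm2, Mcm6 and Chaf1a. In 21 members all 4 AKP::Keap1 arrays lay above all 4 AKP arrays, and in 0 members all lay below, where 15.5% and 11.5% of all genes did so. Of the 22 calls, 12 were kept under each of the 19 alternatives: those of Bard1, Cdt1, Chaf1a, Chaf1b, Gins2, Lig1, Mcm2, Mcm3, Mcm5, Mcm6, Pola2 and Uhrf1.

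The split of calls depends on how arrays were scaled. A shift to the array median moved all genes by -0.25 and gave 14 members higher and 4 lower, so that 77.8% of the members' calls were rises in place of 90.9%. Unscaled values moved all genes by 0.31 and gave 26 higher and 1 lower. Relative to the median of all genes the members' median was 0.45, which a shift of whole arrays cannot change by construction, and it was 0.48 after quantile normalization.

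**Figure D1:**
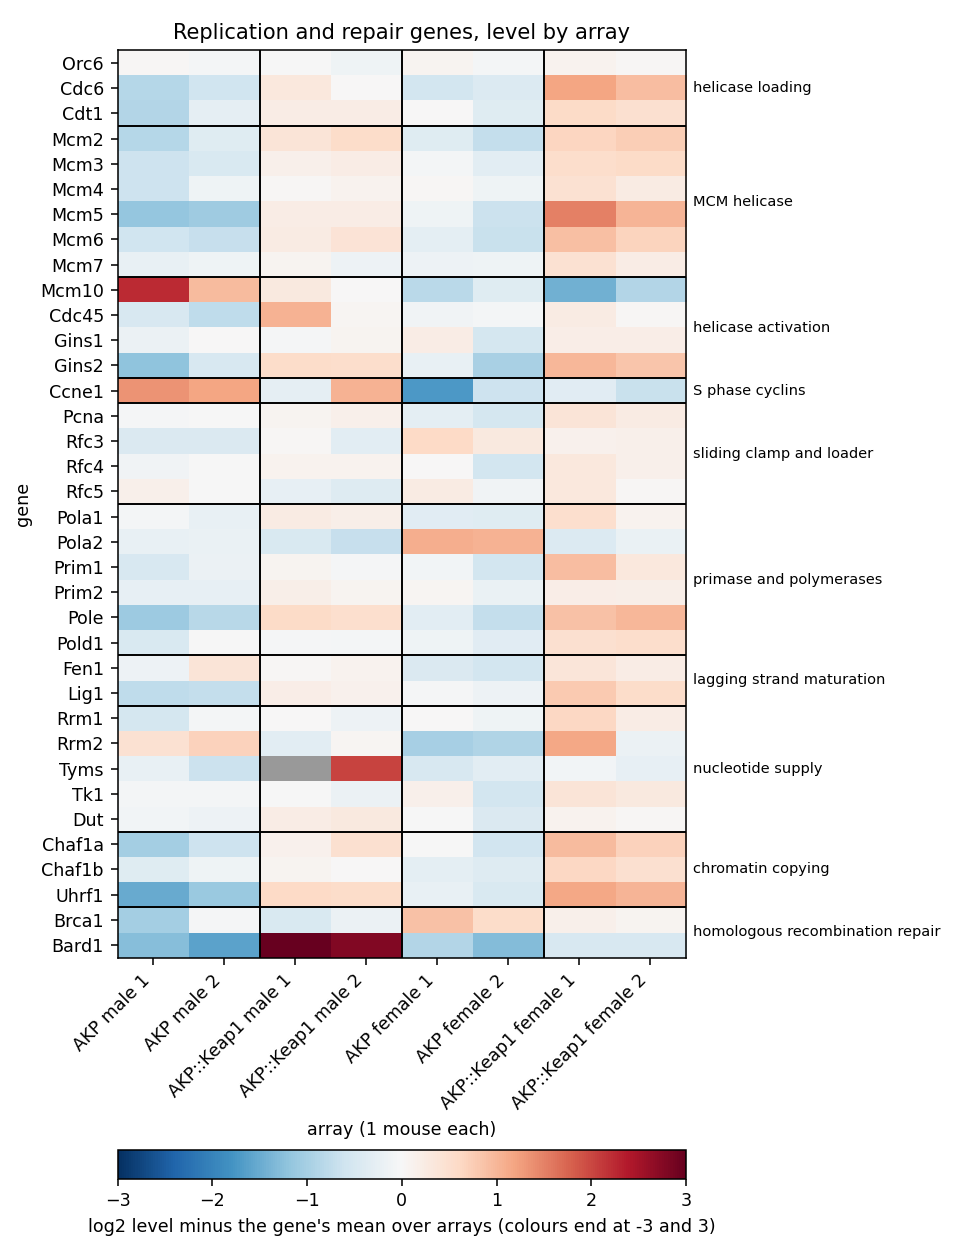
Level of each of the 36 members on each of the 8 arrays, as the deviation (log2) from the member's mean over the arrays, with members in rows ordered by role and arrays in columns by group. Warm cells are above and cool cells below the mean, and the grey cell of Tyms is a spot marked as an outlier. The AKP::Keap1 columns are warmer in most rows, with Bard1 and Tyms standing out in males and Mcm10, Ccne1 and Rrm2 high in AKP males.

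The starts of these genes were searched for the letters that E2F factors are known to bind, since many of the members are known E2F targets. RefSeq windows of 300 bases (250 before and 50 after the start, assembly GRCm38.p6) matched 32 of the 38 members with 37 windows. The E2F letters TTTCGCGC, TTTGGCGC, TTTCCCGC or TTTGCCGC, on either strand and with overlaps between them allowed, stood in 13 of the 37 windows (35.1%), against 744 of all 32851 windows (2.26%) and 3.36% of the windows of tested genes. Of the members that rose and have a window, 10 of 16 held a match: Bard1, Cdc6, Cdt1, Lig1, Mcm3, Mcm5, Mcm6, Pola1, Pold1 and Uhrf1. Of the other kept members with a window, 2 of 15 held one (Mcm7 and Rfc3), and so did Orc1. The stretches around the matches that lie before the start are shown for the risen members, with the matched letters in capitals.
Bard1: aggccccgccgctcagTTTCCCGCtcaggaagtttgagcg
Cdc6: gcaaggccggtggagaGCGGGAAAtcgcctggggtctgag
Mcm5: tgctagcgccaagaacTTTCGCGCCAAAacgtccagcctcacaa
Mcm6: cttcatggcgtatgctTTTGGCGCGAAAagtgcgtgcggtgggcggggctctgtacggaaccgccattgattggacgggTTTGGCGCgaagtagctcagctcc
Pola1: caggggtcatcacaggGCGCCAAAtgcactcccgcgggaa
Uhrf1: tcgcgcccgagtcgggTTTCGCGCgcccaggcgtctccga
They lie at chr1:71103158-71103197 for Bard1 (minus strand), chr11:98907997-98908036 for Cdc6 (plus), chr8:75109340-75109383 for Mcm5 (plus), chr1:128359729-128359831 for Mcm6 (minus), chrX:93632270-93632309 for Pola1 (minus) and chr17:56304112-56304151 for Uhrf1 (plus). In Mcm5 and Mcm6 matches on opposite strands overlap. The matches of Cdt1, Lig1, Mcm3 and Pold1 lie after the start and are not printed. Among other motifs, CCAAT stood in 54.1% of the members' windows and 37.4% of all windows, the antioxidant response core TGACNNNGC in 16.2% and 12.4%, and the cell cycle homology letters TTTGAA or TTCGAA in 16.2% and 19.2%. Among the windows of tested genes these shares were 37.4%, 13.7% and 15.0%, so the last motif was less frequent in members than in all windows and more frequent than in those of tested genes. A match describes the letters of a window and does not show that a factor binds there.

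Of the helicase loaders, Cdt1 and Cdc6 rose and Orc6 was not called (0.00 ± 0.09, adjusted p = 0.98). Cdt1, the licensing factor that brings the Mcm ring to the origin, stood at -0.40 and 0.22 in AKP and 0.71 and 0.70 in AKP::Keap1 among males, and at 0.50 and 0.13 in AKP and 1.06 and 0.97 in AKP::Keap1 among females. All AKP::Keap1 arrays were above all AKP arrays (0.75 ± 0.16, adjusted p = 0.015). The loader ATPase Cdc6 stood at -6.64 and -6.38 in AKP males, where it was not well above background, and at -5.46 and -5.76 in their AKP::Keap1 counterparts. AKP females had -6.33 and -6.19 and AKP::Keap1 females -4.60 and -4.85. The genotypes did not overlap, with 1.22 ± 0.12 over both sexes (adjusted p = 0.0016), at least 1.85-fold in males (adjusted p = 0.016) and 1.53 ± 0.17 in females (adjusted p = 0.0051). Cdc6 lies near background, and with another background correction (normexp) its difference over both sexes was -0.08 and no longer called (adjusted p = 0.59). In males normexp, which adds an offset of 50, turned the call into a fall (-0.50, adjusted p = 0.036). In females it left 0.34 without a call (adjusted p = 0.16). The processed signals of Cdc6 ran from 9.8 to 43.9, all below that offset, and the cause of the fall was not tested. The other probe of Cdc6, well above background on 5 arrays, had 1.42 ± 0.24.

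All 6 Mcm ring subunits had positive differences, from 0.30 for Mcm7 to 1.50 for Mcm5, and 5 of the 6 rose. Mcm5 stood at -2.32 and -2.23 in AKP and -0.93 and -0.93 in AKP::Keap1 among males, and at -1.29 and -1.80 in AKP and 0.34 and -0.14 in AKP::Keap1 among females. The AKP::Keap1 mice of both sexes were above all AKP mice, a 2.82-fold difference (1.50 ± 0.16, adjusted p = 0.0019). Mcm2 stood at -2.82 and -2.32 in AKP and -1.59 and -1.41 in AKP::Keap1 among males, and at -2.34 and -2.69 in AKP and -1.33 and -1.22 in AKP::Keap1 among females. It was 2.22-fold higher without overlap (1.15 ± 0.15, adjusted p = 0.0031), and the male (1.07 ± 0.21) and female (1.24 ± 0.21) differences were both called. Mcm6 stood at 1.28 and 1.19 in AKP and 2.11 and 2.28 in AKP::Keap1 among males, and at 1.59 and 1.21 in AKP and 2.77 and 2.55 in AKP::Keap1 among females (1.11 ± 0.12, adjusted p = 0.0020). Its genotypes did not overlap either. Mcm3 rose less (0.73 ± 0.10, adjusted p = 0.0032), and Mcm4 rose by the smallest step of the called subunits (0.42 ± 0.13, adjusted p = 0.047), a call kept under 8 of 19 alternatives and lost without any single array except AKP male 2. Mcm7 was not called (0.30 ± 0.10, adjusted p = 0.054). No Mcm ring subunit had a called interaction with sex.

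**Figure D2:**
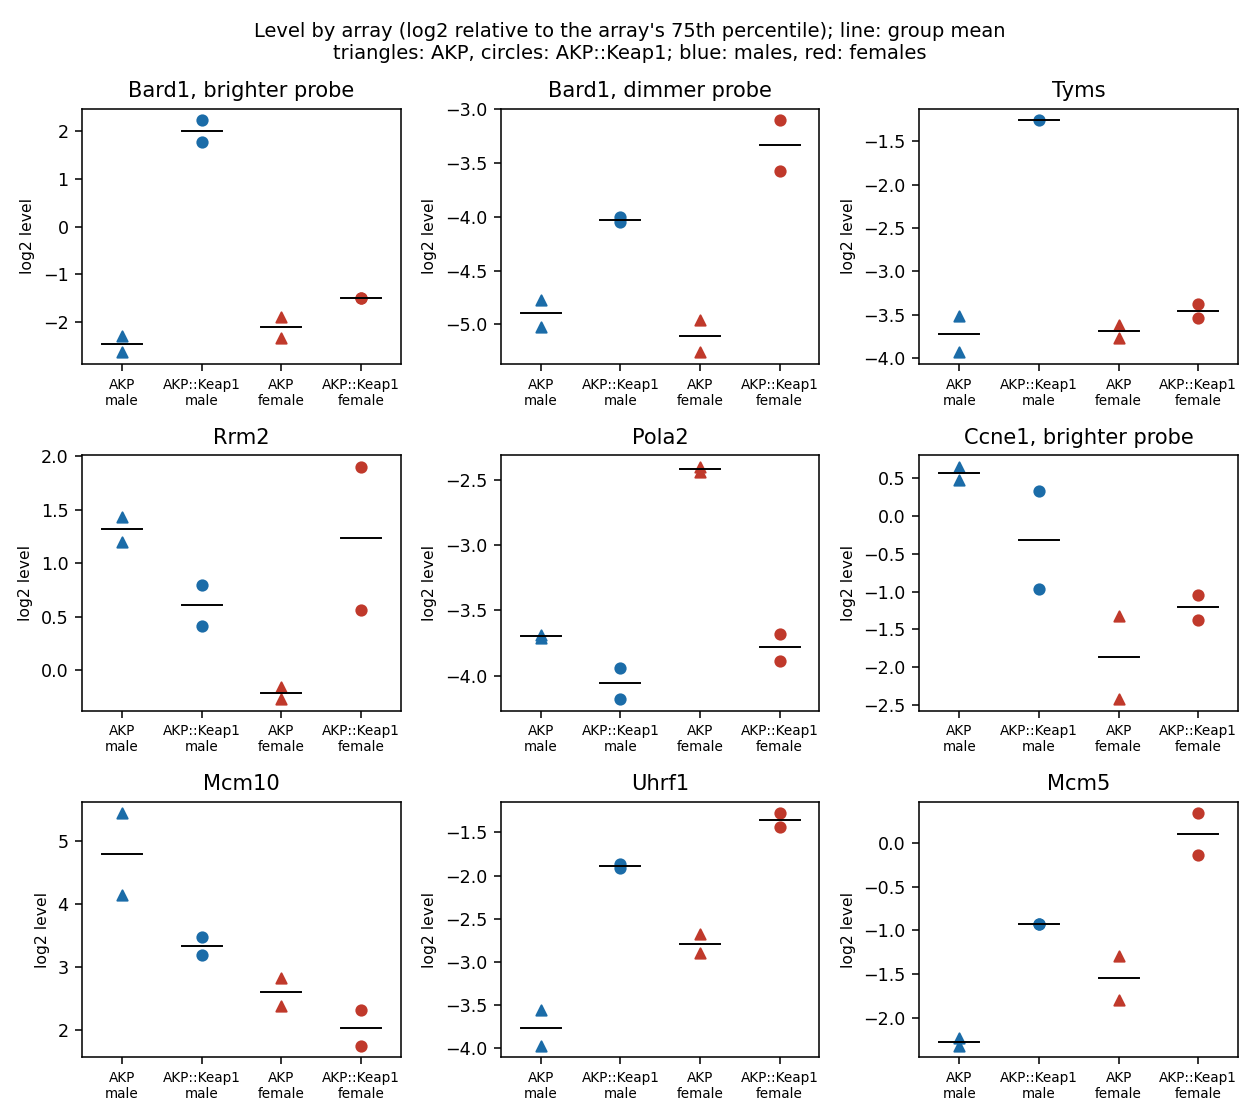
Levels (log2 relative to the array's 75th percentile) of selected members on the single arrays, with triangles for AKP, circles for AKP::Keap1, blue for males, red for females and a line at each group's mean. Mcm5 and Uhrf1 separate the genotypes in both sexes, the brighter Bard1 probe and Tyms lie far higher in AKP::Keap1 males than in any other group, and the dimmer Bard1 probe is highest in AKP::Keap1 females. Tyms has 1 point in AKP::Keap1 males because the other spot was marked as an outlier.

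The factors that activate the loaded ring did not move together. Gins2, a subunit of the GINS complex, stood at -4.15 and -3.42 in AKP and -2.39 and -2.41 in AKP::Keap1 among males, and at -3.15 and -3.90 in AKP and -1.94 and -2.11 in AKP::Keap1 among females. It was 2.73-fold higher without overlap (1.45 ± 0.23, adjusted p = 0.0052, and 0.84 with normexp), while its partner Gins1 overlapped between the genotypes and was not called (0.23 ± 0.18, adjusted p = 0.32). Cdc45, which joins GINS and the Mcm ring in the active helicase, was called in males (1.17 ± 0.32, adjusted p = 0.040), not in females (0.22 ± 0.32, adjusted p = 0.65) and not over both (0.70 ± 0.22, adjusted p = 0.051). Its male call was kept under 7 of 18 alternatives, and its difference was 0.67 without AKP::Keap1 male 1. Mcm10, which helps the helicase to start, went the other way. It stood at 5.44 and 4.14 in AKP and 3.48 and 3.20 in AKP::Keap1 among males, and at 2.39 and 2.83 in AKP and 1.76 and 2.32 in AKP::Keap1 among females. Both AKP males were above all other mice, and the genotypes overlapped once the sexes were pooled. Its fall (-1.01 ± 0.31, adjusted p = 0.045) was kept under 7 of 19 alternatives and was lost without any single array except AKP male 2.

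Cyclin E1, Ccne1, which drives the entry into S phase with Cdk2, did not follow the genotype. It stood at 0.65 and 0.48 in AKP and -0.97 and 0.33 in AKP::Keap1 among males, and at -2.42 and -1.32 in AKP and -1.05 and -1.37 in AKP::Keap1 among females. The AKP males were the highest and the females the lowest, with overlap between the genotypes (-0.12 ± 0.36, adjusted p = 0.82).

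The sliding clamp rose while its loader subunits were not called. Pcna, the ring that tethers the polymerases, stood at 2.50 and 2.52 in AKP and 2.63 and 2.69 in AKP::Keap1 among males, and at 2.25 and 2.0 in AKP and 2.93 and 2.79 in AKP::Keap1 among females. The genotypes did not overlap (0.44 ± 0.09, adjusted p = 0.014), with a called difference in females (0.73 ± 0.13, adjusted p = 0.016) and 0.15 ± 0.13 in males (adjusted p = 0.41). The interaction was not called (0.58 ± 0.19, adjusted p = 0.14), and the call over both sexes ended under 3 of 19 alternatives: without AKP::Keap1 male 2 (0.43, adjusted p = 0.052), with the array median as the scale (0.20, adjusted p = 0.11) and with the slide as a random block (adjusted p = 0.094). The loader subunits Rfc3 (0.00 ± 0.12), Rfc4 (0.33 ± 0.14) and Rfc5 (-0.14 ± 0.12) were not called, and the other probe of Rfc4 had -0.02.

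Of the 6 primase and polymerase genes 5 rose and 1 fell. Pole, the catalytic subunit of the leading strand polymerase, stood at -2.29 and -2.03 in AKP and -0.63 and -0.70 in AKP::Keap1 among males, and at -1.51 and -1.92 in AKP and -0.33 and -0.20 in AKP::Keap1 among females. It was 2.78-fold higher without overlap (1.47 ± 0.13, adjusted p = 0.0012), by 1.50 ± 0.18 in males and 1.45 ± 0.18 in females. Its other probe was above background on 4 arrays and was not called (0.77 ± 0.83, adjusted p = 0.48), and the mean of both probes gave 1.12 without a call (adjusted p = 0.085). The catalytic subunit of polymerase delta, Pold1 (0.46 ± 0.12, adjusted p = 0.027), and that of polymerase alpha, Pola1 (0.51 ± 0.11, adjusted p = 0.016), rose, as did the primase subunits Prim1 (0.64 ± 0.19, adjusted p = 0.037) and Prim2 (0.31 ± 0.09, adjusted p = 0.040). These 4 calls were kept under 11, 14, 10 and 7 of 19 alternatives in that order, and with the array median as the scale they ended, at 0.22, 0.26, 0.40 and 0.06.

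Pola2, the accessory subunit that links polymerase alpha to the helicase, was the exception. It stood at -3.71 and -3.69 in AKP and -3.94 and -4.18 in AKP::Keap1 among males, and at -2.40 and -2.44 in AKP and -3.89 and -3.68 in AKP::Keap1 among females. The AKP females were above the other 3 groups, which ran from -4.18 to -3.68. Pola2 fell over both sexes (-0.86 ± 0.10, adjusted p = 0.0022) and in females (-1.37 ± 0.14, adjusted p = 0.0040), had -0.36 ± 0.14 in males (adjusted p = 0.094) and an interaction of -1.01 ± 0.19 that was not called (adjusted p = 0.065). Both called falls were kept under every alternative run, while the catalytic subunit Pola1 of the same complex rose.

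Ligase Lig1, which seals the fragments of the lagging strand, rose in both sexes, and the flap nuclease Fen1, which trims them, was called in females alone. Lig1 stood at -0.11 and -0.05 in AKP and 0.85 and 0.80 in AKP::Keap1 among males, and at 0.63 and 0.51 in AKP and 1.45 and 1.21 in AKP::Keap1 among females. The genotypes did not overlap within a sex or across all mice, with the nearest arrays at 0.63 and 0.80 (0.83 ± 0.09, adjusted p = 0.0020). Fen1 had -0.04 ± 0.19 in males (adjusted p = 0.89) and 0.78 ± 0.19 in females (adjusted p = 0.033), with an interaction of 0.82 ± 0.27 that was not called (adjusted p = 0.14) and a female call kept under 10 of 18 alternatives.

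In nucleotide supply, 1 of 5 genes was called. Thymidylate synthase Tyms, which makes dTMP, stood at -3.51 and -3.93 in AKP males, -3.77 and -3.61 in AKP females and -3.37 and -3.54 in AKP::Keap1 females. In AKP::Keap1 males it stood at -1.26 on the array that gave a value, far above every other mouse, and the spot of the other array was marked as an outlier and left out of the fit. Tyms rose over both sexes (1.34 ± 0.15, adjusted p = 0.0031) and by 2.45 ± 0.23 in males (5.48-fold, adjusted p = 0.0039), a value of 2.14 when the outlier spot is kept. The call over both sexes ended with the slide as a random block (adjusted p = 0.12), a fit without an interaction of genotype and sex. In females it had 0.23 ± 0.19 (adjusted p = 0.41). The deoxyuridine triphosphatase Dut (0.34 ± 0.11, adjusted p = 0.057), the large ribonucleotide reductase subunit Rrm1 (0.35 ± 0.15) and thymidine kinase Tk1 (0.26 ± 0.16) were not called. The small reductase subunit Rrm2 stood at 1.20 and 1.43 in AKP and 0.41 and 0.80 in AKP::Keap1 among males, and at -0.27 and -0.16 in AKP and 1.90 and 0.56 in AKP::Keap1 among females. Its arrays were lower with Keap1 loss in males (-0.71 ± 0.41) and higher in females (1.44 ± 0.41), and no genotype difference was called (over both sexes 0.37 ± 0.29, adjusted p = 0.35).

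All 3 genes that rebuild chromatin behind the fork rose. Uhrf1, which reads hemimethylated DNA and brings in the maintenance methyltransferase, stood at -3.97 and -3.56 in AKP and -1.86 and -1.91 in AKP::Keap1 among males, and at -2.68 and -2.90 in AKP and -1.28 and -1.44 in AKP::Keap1 among females. All AKP::Keap1 mice were above all AKP mice, a 3.15-fold difference (1.65 ± 0.12, adjusted p = 0.00080), by 1.88 ± 0.17 in males and 1.43 ± 0.17 in females. The histone chaperone subunits Chaf1a (1.11 ± 0.18, adjusted p = 0.0055) and Chaf1b (0.59 ± 0.09, adjusted p = 0.0056) rose as well without overlap. Chaf1b was called in females (0.88 ± 0.13, adjusted p = 0.010) and had 0.29 ± 0.13 in males (adjusted p = 0.15). The other probe of Chaf1b, well above background on 8 arrays, had 0.45 ± 0.12 over both sexes, 0.13 ± 0.17 in males and 0.76 ± 0.17 in females. On that probe the genotypes overlapped, with 1 AKP male at -0.83 and the AKP::Keap1 males at -0.85 and -0.9. With normexp the differences of Uhrf1 and Chaf1a were 1.06 and 0.58 and still called.

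Bard1 had the largest difference of the members, and its partner Brca1, with which it forms the ubiquitin ligase of homologous recombination repair, could barely be measured. Bard1 stood at -2.29 and -2.63 in AKP and 2.23 and 1.77 in AKP::Keap1 among males, and at -1.89 and -2.32 in AKP and -1.49 and -1.50 in AKP::Keap1 among females. Both AKP::Keap1 males were far above every other mouse, and the other 3 groups ran from -2.63 to -1.49. The male difference was 22.0-fold (4.46 ± 0.23, adjusted p = 0.00058) and the female one was not called (0.61 ± 0.23, adjusted p = 0.10). A further probe of the same gene did not show this pattern: it stood at -4.77 and -5.02 in AKP and -4.00 and -4.05 in AKP::Keap1 among males, and at -5.26 and -4.96 in AKP and -3.10 and -3.57 in AKP::Keap1 among females. That probe rose in males (0.87 ± 0.20) and in females (1.78 ± 0.20), and the genotypes did not overlap on either probe. A rise by genotype therefore rests on both probes, and the size in males on the first alone. Brca1 was well above background in the AKP females alone, at -6.09 and -6.42, and was not called by genotype (-0.20 ± 0.23, adjusted p = 0.51).

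Within males 14 members were called higher and 0 lower (16.9% and 11.5% of all genes), and within females 15 higher and 1 lower (12.3% and 9.07%). Medians were 0.35 in males and 0.65 in females, against -0.03 and 0.05 over all genes. Called in both sexes were 10: Cdc6, Mcm2, Mcm3, Mcm5, Mcm6, Gins2, Pole, Lig1, Chaf1a and Uhrf1. The share of all genes called higher in both is not given here. Cdt1, Cdc45, Tyms and Bard1 were called in males and not in females, and Pcna, Pola1, Pold1, Fen1 and Chaf1b in females and not in males. A call in 1 sex does not show that the sexes differ, which the interaction tests. With 2 mice a group these counts move with single mice: males gave 5 calls without AKP male 1 and 6 without either AKP::Keap1 male, and females gave 6 without AKP female 2 and 10 without AKP::Keap1 female 1. A median shift, which moved all genes in males by -0.39, gave 11 members higher and 4 lower there, against 1737 and 6524 of all genes. Unscaled values gave 23 higher and 0 lower, against 5435 and 171. Quantile normalization gave 9 and 1, against 1784 and 1456, and normexp 13 and 4, against 1541 and 4411.

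**Figure D3:**
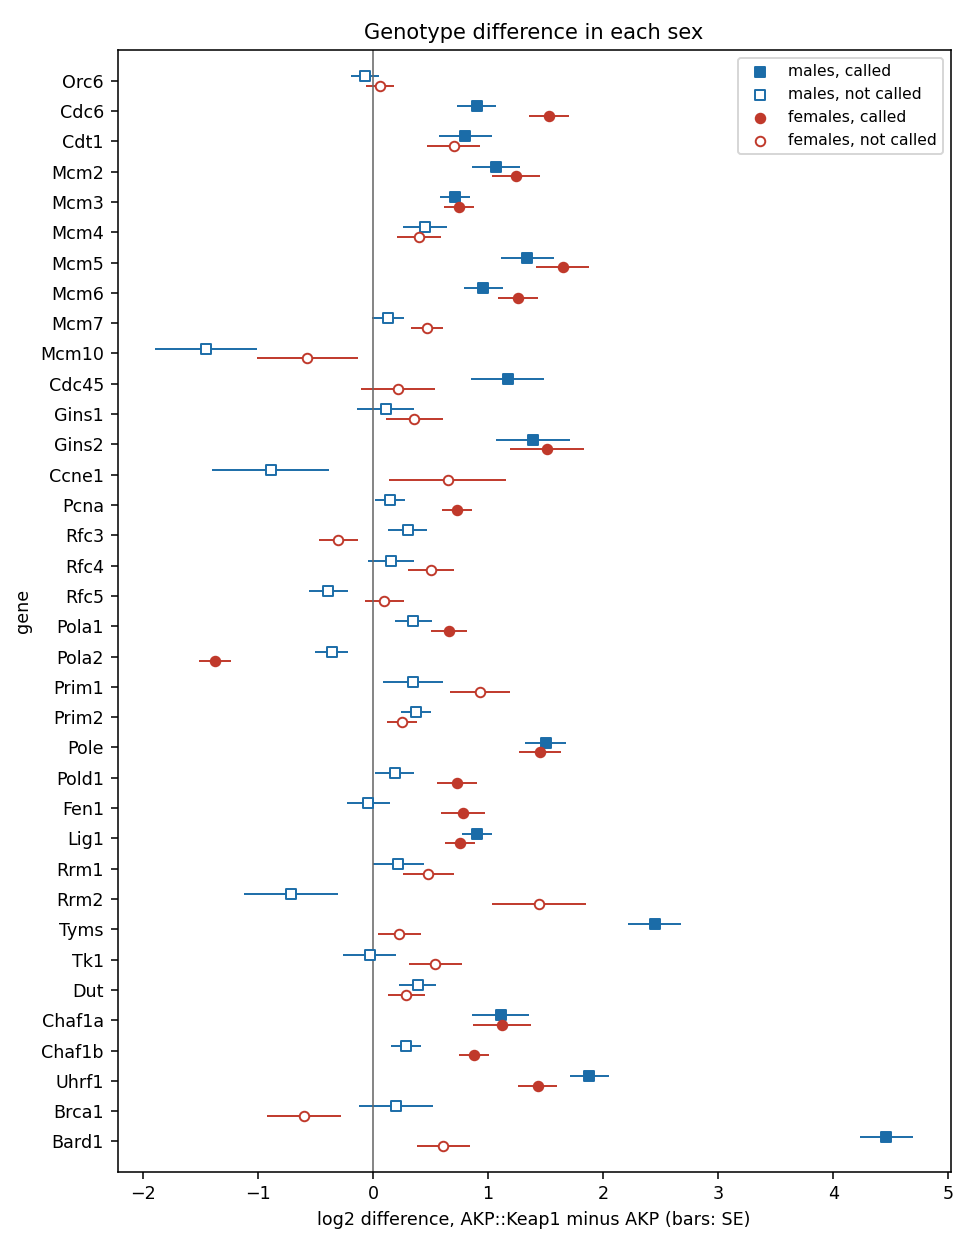
Genotype difference (log2, AKP::Keap1 minus AKP) of each member in males and in females, with bars of 1 standard error and filled points for called differences. Most members lie to the right of 0 in both sexes, while Bard1 (4.46 and 0.61) and Tyms (2.45 and 0.23) are far apart and Pola2 and Mcm10 lie below 0 in both.

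The female and male differences had the same sign in 28 of 36 members (77.8%) and in 68.8% of all genes. They correlated at Pearson's r = 0.36 and Spearman's rho = 0.44 across members, and at 0.59 and 0.55 over the 34 members without Bard1 and Tyms, which were set aside after their values were seen. Across all genes the values were 0.68 and 0.56. Members are not independent replicates, and the points of a sex share its 4 arrays.

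The interaction, the female minus the male genotype difference, was called lower for Bard1 and Tyms and higher for 0 members (1.46% and 0.479% of all genes). At an unadjusted limma p below 0.05, 9 members passed. The share of all genes below that threshold is not given here, so this count is not read as a result about the members. Bard1 had -3.85 ± 0.32 (adjusted p = 0.016) on the probe used, and 0.90 ± 0.29 (adjusted p = 0.13) on the other, so that its direction depends on the probe. The mean of both Bard1 probes that were above background gave -1.47, which was still called. Leaving out AKP male 2, AKP::Keap1 male 2 or any of the 4 females ended the call, with values from -4.08 to -3.64. Tyms had -2.22 ± 0.29 (adjusted p = 0.042) and rests on the lone AKP::Keap1 male with a value, assumed to vary as the other groups do. Its call was lost without each of the 7 arrays in turn that could be left out, and with the outlier spot kept it was -1.91 (adjusted p = 0.059). A pseudogene of Tyms has a probe of its own on the array, and since close copies can share signal, the level of Tyms is uncertain.

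Among AKP mice, females and males differed in 8 members. Higher in females were 5, Pola2, Uhrf1, Rfc3, Lig1 and Brca1, and lower were 3, Ccne1, Mcm10 and Rrm2. These are 13.9% and 8.33% of the members, near the 9.68% and 9.76% of all genes called higher and lower. Of those higher in females, Pola2 had 1.28 ± 0.14 (adjusted p = 0.0065) and Uhrf1 0.98 ± 0.17 (adjusted p = 0.018). Rfc3 had 0.88 ± 0.17 (adjusted p = 0.022) and Lig1 0.65 ± 0.13 (adjusted p = 0.025). Brca1 was at least 1.23-fold higher (adjusted p = 0.045), a call kept under 3 of 17 alternatives and reversed to -0.16 with normexp. It passed the filter on dim probes only through the 2 AKP female arrays, the group where it is high. Its call is thus not independent of that filter. Ccne1 was 5.40-fold lower in females (-2.43 ± 0.51, adjusted p = 0.027), and its other probe gave -2.20 ± 0.54. Mcm10 (-2.18 ± 0.44, adjusted p = 0.025) and Rrm2 (-1.53 ± 0.41, adjusted p = 0.049) were lower too. The count fell to 1 when AKP male 1 or AKP female 1 was left out, to 4 when AKP male 2 was and to 3 when AKP female 2 was, and Pola2 alone kept its call under all 18 alternatives.

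Among AKP::Keap1 mice the sexes differed in 3 members, of which Cdc6 was higher in females and Tyms and Bard1 were lower (1.2% and 2.79% of all genes). Bard1 had -3.50 ± 0.23 (adjusted p = 0.0014), Tyms -2.20 ± 0.23 (adjusted p = 0.012) and Cdc6 0.88 ± 0.17 (adjusted p = 0.048). The Bard1 call was kept under all 18 alternatives and that of Tyms was lost without AKP::Keap1 female 2 (-2.11, adjusted p = 0.051). The Cdc6 call was kept under 4 of 18 and lost without any single array. The comparisons of sex and of genotype share arrays, and Pola2 shows it: its AKP females enter both its female fall and its sex difference.

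The rise of the members was set beside a trend of the array. Over all genes in 5 bins of mean level, the dimmest bin had a median genotype difference of 0.39 with 34.9% called higher, and the brightest had -0.13 with 7.50%. The members' medians from the dimmest to the brightest bin were 0.51, 1.13, 0.48, 0.37 and 0.26, over 2, 8, 12, 11 and 3 members. Those of all genes were 0.39, 0.18, -0.02, -0.10 and -0.13. In each bin the members' median lay above that of all genes. Across members, level and difference correlated at Pearson's r = -0.24 and Spearman's rho = -0.34.

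**Figure D4:**
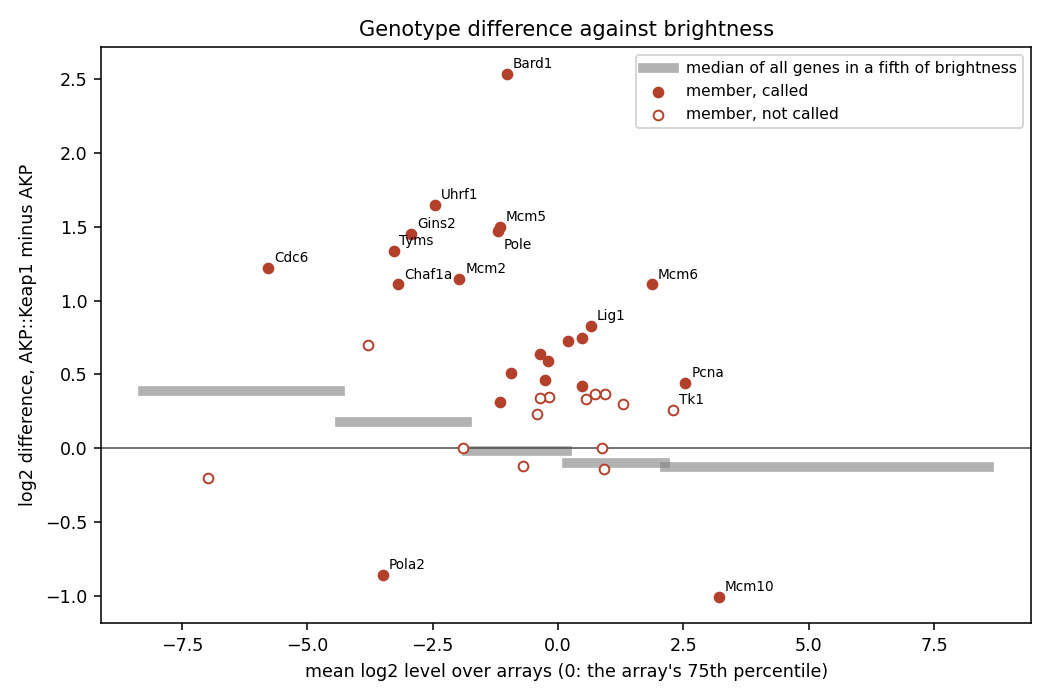
Genotype difference over both sexes (log2) of each member against its mean level on the 8 arrays, with the median of all tested genes in 5 bins of mean level drawn as grey bars. Bin medians fall from 0.39 to -0.13 as probes get brighter, and most members lie above their bin's bar, with Bard1 (2.54) highest and Mcm10 (-1.01) lowest.

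Other genes of the same processes, which are not among the 38, moved less evenly. Of 133 tested genes in 9 lists, 39 rose and 16 fell by genotype, with a median of 0.15. Of all tested genes 21.9% were called higher and 17.2% lower, and the counts of the single lists are to be read beside these shares. The fork list had 7 higher and 1 lower of 21, with Dscc1 (1.87 ± 0.15) and Chtf18 (1.50 ± 0.18) of the alternative clamp loader and the polymerase epsilon subunit Pole2 (0.62 ± 0.09) higher and the polymerase delta subunit Pold2 lower (-0.46 ± 0.11). Of the 7 rises, 1 came from a gene (1.64) that was well above background on only 2 arrays. Its lowest value under the 4 other scalings and background corrections was -0.19. The licensing list had 2 higher and 3 lower of 13: the initiator Ticrr (1.82 ± 0.38) and the GINS subunit Gins3 (0.44 ± 0.11) rose and the origin subunits Orc2 (-0.56 ± 0.09) and Orc5 (-0.37 ± 0.11) and the ring binder Mcmbp (-0.48 ± 0.08) fell. Nucleotide supply had 3 higher and 2 lower of 11, with CTP synthase Ctps (0.84 ± 0.18) higher and the folate enzyme Shmt1 (-0.78 ± 0.10), which works in the thymidylate cycle with Tyms, lower. Chromatin copying had 3 higher and 2 lower of 9, with the histone chaperone Asf1b (1.01 ± 0.14) higher and the histone mRNA binder Slbp (-0.71 ± 0.11) lower.

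Among repair genes the list of double strand break and crosslink repair had 10 higher and 1 lower of 19, with a median of 0.55. The nuclease Exo1 (2.02 ± 0.11, adjusted p = 0.00037) and the crosslink repair factor Fanca (1.76 ± 0.15) rose, and Nbn of the break sensor fell (-0.82 ± 0.10). Mismatch and excision repair had 2 higher and 4 lower of 14, with the glycosylase Ogg1 (0.64 ± 0.11) higher and the mismatch binder Msh3 (-0.52 ± 0.09) lower. End joining had 1 higher of 7, the polymerase Polq (2.30 ± 0.12, adjusted p = 0.00032), and the replication checkpoint had 1 higher of 10, Rad9a (0.41 ± 0.11). In G1 and S phase control 10 of 29 rose and 3 fell: the kinase inhibitors Cdkn2a (3.27 ± 0.42) and Cdkn2b (2.52 ± 0.28) and the cell cycle factor Mybl2 (0.76 ± 0.09) rose, and the S phase kinase Cdk2 (-1.13 ± 0.13), the pocket protein Rbl2 (-0.54 ± 0.12) and E2f5 (-0.34 ± 0.09) fell. The interaction was called lower for Cdk2 (-1.74 ± 0.26). Polq and Ticrr were not well above background in AKP males, so that in males they were at least 2.2-fold and 2.5-fold higher and the values over both sexes depend on signals below background. Under the 4 other scalings and background corrections the lowest values were 0.07 for Polq and 0.11 for Ticrr, each with the call lost in 1 of the 4, 0.57 for Dscc1, 0.70 for Exo1 and 0.76 for Chtf18, which kept their calls. End joining had 0 genes higher with normexp. After the median shift the lists of licensing, nucleotide supply, chromatin copying, excision repair, G1 and S control, checkpoint and fork genes had more falls than rises, whereas break repair kept 7 higher and 1 lower. Without scaling, rises outnumbered falls in all 9 lists.

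**Figure D5:**
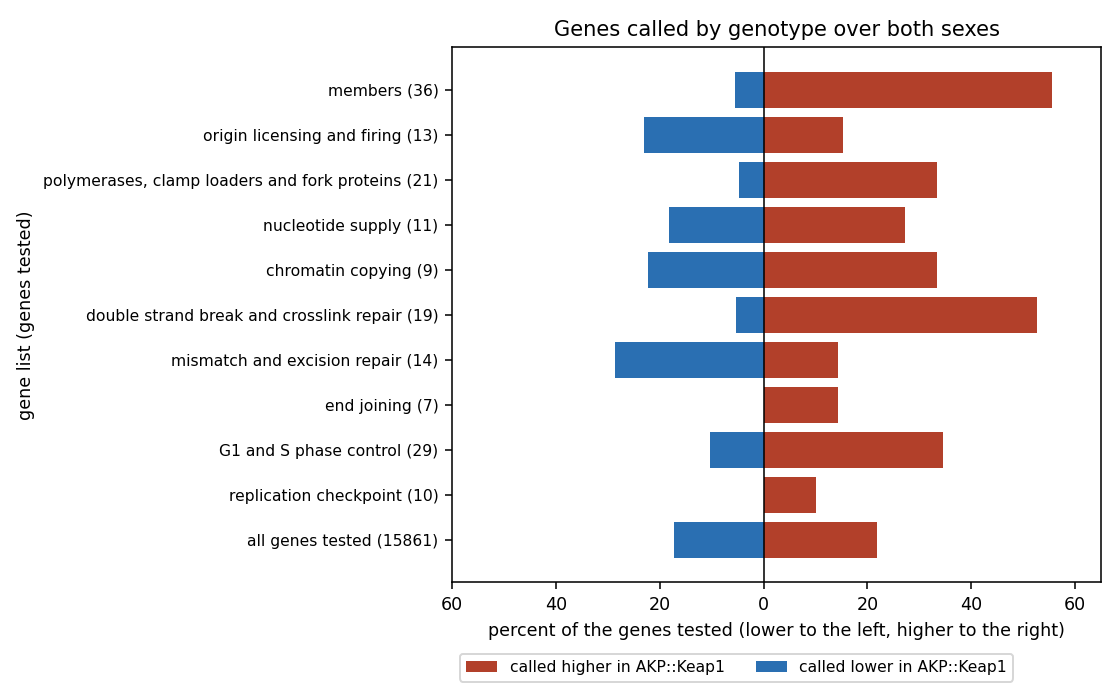
Percent of the tested genes called higher (bars to the right) and lower (to the left) by genotype over both sexes, for the members, the 9 lists of related genes that are not members, and all genes tested. The members have 20 higher and 2 lower of 36, break and crosslink repair 10 and 1 of 19, and mismatch and excision repair 2 and 4 of 14.

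Markers of some of the cell types a liver can hold moved with the genotype as well, where 21.9% of all genes were called higher and 17.2% lower. Of 10 bile duct epithelium markers 8 rose and 0 fell, with a median of 3.11, and their summed level (in units of the 75th percentile signal) ran from 8.38 to 9.76 in AKP males, 78.8 to 91.3 in AKP::Keap1 males, 5.96 to 14.9 in AKP females and 44.1 to 91.6 in AKP::Keap1 females. The 8 rises were found under each of the 4 other scalings and background corrections. Of 10 hepatocyte markers 0 rose and 7 fell, with sums from 1390 to 1550, 907 to 974, 1080 to 1230 and 824 to 1080 in the same order of groups, and the falls numbered 2 unscaled, 4 after quantile normalization and 10 after the median shift. Neutrophil markers had 6 higher of 9, with sums from 4.98 to 6.45, 31.7 to 41.7, 6.01 to 8.68 and 31.3 to 31.5, and 3 higher after quantile normalization or normexp. Endothelial markers had 0 higher and 5 lower of 8, with sums from 29.5 to 31.1, 22.9 to 24.5, 30.3 to 31.2 and 24.1 to 26.0, and 0 lower unscaled.

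Stellate cell markers had 5 higher and 2 lower of 10, but their sums did not follow the genotype in males, from 56.2 to 61.5 in AKP and 51.7 to 52.4 in AKP::Keap1, with 45.5 to 55.5 and 57.1 to 67.6 in females. Macrophage markers had 4 higher of 9 and T and NK cell markers 2 of 9. B cell markers had 1 of 6 and erythroid markers 0 of 9. Beside the 21.9% of all genes called higher, the T and NK, B cell and erythroid counts were near or below that share. No marker of these 4 lists was lower by genotype, although after the median shift 3 erythroid markers were lower. Macrophage sums overlapped between the genotypes in both sexes (40.9 to 68.2 and 42.8 to 57.7 in males, 67.9 to 90.3 and 77.1 to 124 in females), and so did erythroid sums (103 to 181 and 112 to 189, 143 to 163 and 81.8 to 175). T and NK cell sums were 29.4 to 35.9 and 41.0 to 47.9 in males and 23.2 to 32.4 and 25.5 to 50.2 in females, and B cell sums 1.51 to 1.54 and 1.57 to 3.26, and 2.77 to 3.44 and 3.30 to 3.45. Of all these markers, 1 erythroid and 1 B cell gene had a named probe but were not among the genes tested. The members' own sum, to which bright genes such as Mcm10 add most, did not rise in males, at 55.4 to 78.7 in AKP and 55.5 to 57.5 in AKP::Keap1, and was 37.2 to 42.3 and 54.9 to 61.3 in females. The part of these cell types in the members' rise was not tested.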

How the data were processed

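RNA of whole liver (500 ng per sample, per the labels' protocols) was hybridised to 1-colour Agilent arrays, 8 in 4 groups of 2. The deposited values are spot intensities: the authors' scanner files come from Feature Extraction 10.7.3.1 per the file headers (10.1 per the submitters' processing notes), with background-subtracted processed signals not scaled between arrays, and the deposited value table equals them in 355176 of 355176 values. Array design 026655 is annotated on mm9, per the file headers. The number of arrays limits the precision.

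Of 44397 spots per array, 1377 controls and the spots marked as outliers were left out. Of 39429 probes, 26055 were named through RefSeq accessions (GRCm38.p6 table), giving 19751 genes, and 13374 stayed unnamed. Log2 processed signal minus the array's 75th percentile was fitted with limma 3.58.1 (R 4.3.3) as 4 group means on all 8 arrays, with 6 contrasts and Benjamini-Hochberg adjustment. A probe had to be well above background on at least 2 arrays, and of several probes of a gene the brightest on average was used, which left 15861 genes, 38 of them with an array missing. "At least" folds are lower bounds where every array of 1 group was below that criterion: the bright group's mean was set against the dim group's mean of, per array, the higher of the lowest signal well above background and the probe's own. Means, ranges and figures used Python 3.11.15, pandas 2.3.3, scipy 1.17.1 and matplotlib 3.10.9.

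The procedure, tested on simulated data in which 200 genes were changed, gave these rates: for the genotype contrast over both sexes it recovered 68.0% of 2-fold and 86.4% of 4-fold changes, with 5.74% of calls false. All 38 members are accounted for. Called members could be named, and of each further list up to 3 genes higher and 3 lower with the smallest adjusted p, with Keap1 as a check of the labels; some genes that the rule allows are not reported here. Members and lists were chosen with earlier results of these data known. Alternatives covered scaling, background correction, filter, probe choice, variance model, replicate block, slide and each array left out. The normexp alternative (offset 50) used the median spot signal, since the files hold no mean signal. Keeping outlier spots and fitting each probe alone were chosen after the data were seen. Same-numbered arrays were not treated as pairs.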

Additional observations from a re-analysis of the deposited data

Results flagged for a closer look

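The genotype difference was flagged as unlike between the sexes in 4 members, by the interaction test or by the direction of the arrays alone. Bard1 had a female minus male difference of -3.85 and Tyms one of -2.22, and in both the test of the interaction itself was passed (limma adjusted p = 0.016 and 0.042). For Bard1 the dimmer of the probes above background gave 0.90, so the direction was not the same on both, and for Tyms the male side has 1 value. In Rrm2 (2.15) and Rfc3 (-0.60) the arrays of the genotypes did not overlap in either sex and lay in opposite directions, while the interaction did not pass (limma adjusted p = 0.11 and 0.20). Rrm2 was lower in AKP::Keap1 males and higher in AKP::Keap1 females, and Rfc3 the other way round. With 2 arrays a group this does not show that the sexes differ. The share of all genes with such arrays is not given here.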

How the results depend on the processing

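Of 22 members called by genotype over both sexes, 12 kept their call under every alternative, as did 4 of 14 in males (Bard1, Lig1, Tyms and Uhrf1) and 4 of 16 in females (Mcm5, Mcm6, Pola2 and Uhrf1). For Tyms in males 17 alternatives could be run, against 18 for Bard1. The missing one leaves out the only AKP::Keap1 male with a value, so how far its call depends on that mouse was not tested. With the slide as a random block (correlation 0.232) and no interaction term, 14 members were called over both sexes, 13 higher and 1 lower. Leaving out 1 array gave 16 to 24 over both sexes, 5 to 13 in males, 6 to 16 in females, 0 to 1 for the interaction, 1 to 7 for sex in AKP and 1 to 2 for sex in AKP::Keap1. A group left with 1 array is then assumed to vary as the others do. Unscaled values gave 23 calls in males, where 5435 of all genes were higher and 171 lower. They gave 5 calls for sex in AKP, as did quantile normalization. For the interaction, quantile normalization, no filter and outlier spots kept each gave 1 call, and the array median 4.

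Same-numbered arrays deviated together at -0.156 to 0.125, and the labels do not say that a number marks a litter or day, so they share only a number. The replicate block gave 20 calls over both sexes, 13 in males, 15 in females, 1 for the interaction, 6 for sex in AKP and 2 for sex in AKP::Keap1.

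Differences that changed sign, over both sexes unless said: with unscaled values Orc6 was 0.307, Ccne1 0.194, Rfc3 0.31, Rfc5 0.167 and Brca1 0.109. With normexp Orc6 was 0.106 and Cdc6 -0.0764 (-0.496 in males, a called fall at adjusted p = 0.036), and Brca1 for sex in AKP was -0.162. Quantile normalization gave Orc6 0.0433, the array median Gins1 -0.0111 and outlier spots kept Rfc3 0.000422. With 1 array left out Orc6 ran from -0.0432 to 0.0364, Ccne1 from -0.443 to 0.211, Rfc3 from -0.0883 to 0.0873 and Brca1 from -0.449 to 0.0462. The cause of these changes was not tested. Over all genes 3481 were higher and 2730 lower by genotype, against 2396 and 6376 with the array median, 5732 and 647 unscaled, 2983 and 2848 after quantile normalization and 2200 and 3957 with normexp, so rises made up 56.0%, 27.3%, 89.9%, 51.2% and 35.7% of calls. Cdc6 and Brca1 lie near background, which limits their values.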
